A study of Mus musculus with 13 samples.

Results

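MyD88 and IRAK signaling was followed through 9 genes, taken by name and not by their values: the drivers Myd88, Tirap, Irak4, Irak1, Irak2 and Traf6, the output factor Irf5, and the brakes Irak3 and Tollip. All 9 were on the panel of 561 genes, and all 9 were among the 415 genes whose mean count exceeded background. The RNA came from CD45+ cells, the leukocyte fraction, taken by magnetic positive selection from CT26 tumors, a mouse colon carcinoma line grown under the skin of 6-week-old female BALB/c mice. Tumors received local X-ray irradiation as 2 Gy × 5 or as 7.5 Gy × 1, or none (0 Gy), and were sampled in the early (T2), middle (T7), late (T14) and progression (T21) phases, named by the day from the start of irradiation; 1 further sample was taken before irradiation (PreRT). This gave 13 samples, 1 for each of 13 conditions. The methods give 3 mice per group and do not say whether a sample is a pool of them, and they do not say how many of the 5 fractions preceded T2.

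MyD88 is the adaptor through which most Toll-like receptors and the receptors of the IL-1 family signal. Receptor-bound MyD88 gathers the kinase IRAK4, which activates IRAK1 and IRAK2; these pass the signal to the ubiquitin ligase TRAF6 and on to NF-κB and MAP kinases, while IRF5 is activated on the same complex and drives inflammatory cytokine genes. IRAK3, also called IRAK-M, and TOLLIP act on the same complex as brakes and are known for damping repeated or lasting stimulation of macrophages and other myeloid cells.

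Values are normalized nCounter counts, in which each sample is scaled to the same housekeeping level, and a difference between 2 samples is given as a log2 ratio with a 95% interval that covers counting error only. Total counts were 166307 to 675847 per sample, and none of the 117 member values lay at the normalization floor. Without replicates, no comparison of 2 samples has a test. The samples were read in 3 runs: T7 with the 2 Gy × 5 sample of T14 in run 1, the other T14 samples with T21 in run 2, and PreRT with T2 in run 3. Every irradiated sample thus shared a run with the 0 Gy sample of its phase except the 2 Gy × 5 sample of T14. Ptprc, which encodes CD45, was present in all 13 samples, at 199.6 to 1873 normalized counts, lowest at T21 without irradiation and highest at T7 after 2 Gy × 5. Its presence cannot show how pure the leukocyte fraction was, since an unsorted tumor would hold it too. Of 12 listed markers of CD45-negative cells, only 5 were on the panel, and the others were not measured. All 5 were above background, and none was at 0 in any sample. Their summed level was 4602 at PreRT, 3177 to 7355 at T2 and 1828 to 3068 at T7. It was 1416 to 2256 at T14 and 1517 to 1984 at T21. Most of this sum was Fn1, which encodes fibronectin, with 4039 of the 4602 at PreRT; Pdgfrb, a marker of pericytes and fibroblasts, went the other way, with 183 to 227 at T21 and 92.6 at PreRT. In such bulk RNA, fewer cells of a type and less RNA per cell cannot be told apart.

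Myd88, the adaptor itself, was highest in the irradiated samples of T7. It held 145 normalized counts at PreRT, and at T2 153 after 2 Gy × 5 and 120.5 after 7.5 Gy × 1, against 147 at 0 Gy. At T7 it held 339.9 after 2 Gy × 5 and 357 after 7.5 Gy × 1, against 193 at 0 Gy. Both irradiated samples of T7 were above every other sample of the series. At T14 it held 198 and 130.4 in the same order, against 121 at 0 Gy. At T21 the regimens parted, with 145 after 2 Gy × 5 and 76.7 after 7.5 Gy × 1, against 80.9 at 0 Gy. As log2 ratios to the 0 Gy sample of the phase, Myd88 was at 0.81 (0.51 to 1.12) after 2 Gy × 5 and at 0.88 (0.60 to 1.17) after 7.5 Gy × 1 in T7, and at 0.84 (0.37 to 1.32) and -0.08 (-0.65 to 0.49) in T21. The 4 samples of run 1, at 193 or higher, lay above all samples of runs 2 and 3, at 153 or lower. Irak4, Traf6, Irf5 and Tollip also separated in this way. Phase and run thus cannot be told apart in the high T7 levels of these genes.

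The promoter of Myd88 is shown because it held a pair of searched motifs that no other member's window held. In the 300-base windows that RefSeq annotation gives around gene starts (build GRCm38.p6), 12 windows belong to the 9 members, and the interferon-stimulated response element, searched as GAAANNGAAA on both strands, was found in that of Myd88 alone and in 3.44% of all 32851 windows. It is shown here in capitals, at chr9:119340033-119340074 on the minus strand, upstream of the start.
Myd88: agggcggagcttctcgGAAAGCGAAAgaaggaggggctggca
The gamma-activated site, searched as TTCNNNGAA, was again found in Myd88 alone, overlaps the bases above and occurs in 8.3% of all windows. The AP-1 motif TGANTCA was in no member and in 7.81% of windows, the NF-κB motif was in Irak1 alone and in 8.46%, and the ETS motif GGAAGT was in 5 members (Irak1, Irak2, Irf5, Myd88 and Tirap) and in 23.8%. The motifs were chosen after the values were seen, and a match describes the letters only.

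Tirap, which links MyD88 to Toll-like receptors 2 and 4 at the membrane, was the least abundant member with 14 to 69 counts, and exceeded its sample's own background in 12 of 13 samples. It held 46.8 and 55.0 normalized counts at T7 after 2 Gy × 5 and after 7.5 Gy × 1, against 34.3 at 0 Gy. None of its 8 intervals against the 0 Gy sample of the phase excluded 0, so no difference was detectable at this depth.

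Irak4, the first kinase of the complex, followed Myd88. It held 165 at PreRT, and at T2 the 3 samples lay together, at 129 after 2 Gy × 5 and 126 after 7.5 Gy × 1, against 132 at 0 Gy. At T7 it held 293 and 283, against 198 at 0 Gy, and both counting intervals were above 0 there. At T14 it held 238 and 171, against 145 at 0 Gy, and at T21, its lowest phase, 123 and 98.5, against 80.9 at 0 Gy. Irak4 and Myd88 correlated at r = 0.929 over the 13 samples, and at 0.764 after each run was centered on its mean; these values share samples, scaling and runs and are descriptive.

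Irak1, the kinase that binds TRAF6 once it is activated, was the steadiest member. Its normalized counts ran from 194 to 316, a 1.63-fold range against a median range of 5.16-fold over the 415 genes, and its spread ranked 407 of 415. It held 280.4 at PreRT, and at T2 272 after 2 Gy × 5 and 312 after 7.5 Gy × 1, against 279 at 0 Gy. At T7 it held 316 and 254, against 279 at 0 Gy. At T14 it held 246 and 288, against 255.9 at 0 Gy, and at T21 198 and 194, against 233 at 0 Gy. None of its 8 intervals against the 0 Gy sample of the phase excluded 0.

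Irak2, known for sustaining the later part of the response, was the driver with the widest range, 6.98-fold. It held 259 normalized counts at PreRT, and at T2 307 after 2 Gy × 5 and 199.9 after 7.5 Gy × 1, against 233 at 0 Gy. At T7 it reached 946 and 1063, against 544 at 0 Gy. All 3 samples of T7 were thus above PreRT and T2, and both irradiated ones were above every sample of another phase. At T14 it held 477 and 526, against 336 at 0 Gy, and at T21 615 and 278, against 152 at 0 Gy. It was above the 0 Gy sample in all 4 phases after 2 Gy × 5, with every counting interval above 0, and in 3 of 4 phases after 7.5 Gy × 1. Its highest log2 ratio was that of 2 Gy × 5 at T21, 2.01 (1.71 to 2.32), which was 1.29 with median-of-ratios scaling, 1.25 with total counts and 0.30 when samples were scaled to pan-leukocyte genes.

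Traf6, the ubiquitin ligase downstream of the kinases, held 129.6 at PreRT and was highest at T7, with 242 after 2 Gy × 5 and 313 after 7.5 Gy × 1, against 211 at 0 Gy. At T14 it held 168 and 89.85, against 109.7 at 0 Gy, and at T21 146 and 95.4, against 107 at 0 Gy. In both later phases the 2 regimens lay on opposite sides of the 0 Gy sample, though the intervals after 7.5 Gy × 1 included 0 and the 2 Gy × 5 value of T14 comes from another run.

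Irf5, the transcription factor activated on the complex, moved more than any driver or brake, over an 11.9-fold range, and its spread ranked 80 of 415. It held 171 at PreRT, and at T2 it was lower after irradiation, with 88.9 after 2 Gy × 5 and 66.6 after 7.5 Gy × 1, against 114 at 0 Gy. At T7 the order was the opposite, with 583 and 627, against 265 at 0 Gy. At T14 the 3 samples were closer, with 293 and 249, against 226 at 0 Gy. At T21 it held 189.9 and 159.6, against 52.6 at 0 Gy, the lowest value of the gene. Its log2 ratios to 0 Gy were -0.35 (-0.78 to 0.08) after 2 Gy × 5 and -0.77 (-1.25 to -0.29) after 7.5 Gy × 1 at T2, 1.14 (0.89 to 1.39) and 1.25 (1.01 to 1.48) at T7, and 1.85 (1.33 to 2.40) and 1.60 (1.05 to 2.17) at T21. Irf5 thus accounted for 4 of the 6 cases in which a member was 2-fold above its 0 Gy sample. With median-of-ratios scaling its T7 ratios were 0.71 and 0.67, below 2-fold, and its T21 ratios were 1.13 and 1.33.

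Irak3, a brake without kinase activity, was not highest at T7. It held 37.0 normalized counts at PreRT and was about as low at T2, with 50.7 after 2 Gy × 5 and 33.3 after 7.5 Gy × 1, against 33.8 at 0 Gy. At T7 it held 101 and 96.8, against 80.1 at 0 Gy, and at T14 93.25 and 117, against 78.1 at 0 Gy. All 6 of these samples exceeded every PreRT and T2 value. At T21 it held 135 after 2 Gy × 5, its highest value, and 56.3 after 7.5 Gy × 1, against 43.2 at 0 Gy. Its counts were 22 to 164 before scaling, so its intervals are wide: the log2 ratio to 0 Gy was 1.65 (1.06 to 2.27) for 2 Gy × 5 at T21, 0.59 (0.05 to 1.14) for 7.5 Gy × 1 at T14, and included 0 in the other 6 comparisons. The T21 ratio was 0.93 with median-of-ratios scaling, 0.89 with total counts and -0.07 with pan-leukocyte scaling.

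Tollip, which holds IRAK1 inactive and takes part in sorting receptors for degradation, was the steadier brake, over a 2.05-fold range. It held 374 at PreRT, and at T2 464 after 2 Gy × 5 and 498 after 7.5 Gy × 1, against 443 at 0 Gy. All 3 samples of T7 were high and close to each other, at 659 and 614, against 636 at 0 Gy. At T14 it held 503 and 371, against 352 at 0 Gy, and at T21 394 and 321, against 325 at 0 Gy. The gene most like Tollip over the 13 samples was Traf6, with r = 0.923, and 0.621 after centering the runs.

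**Figure D1:**
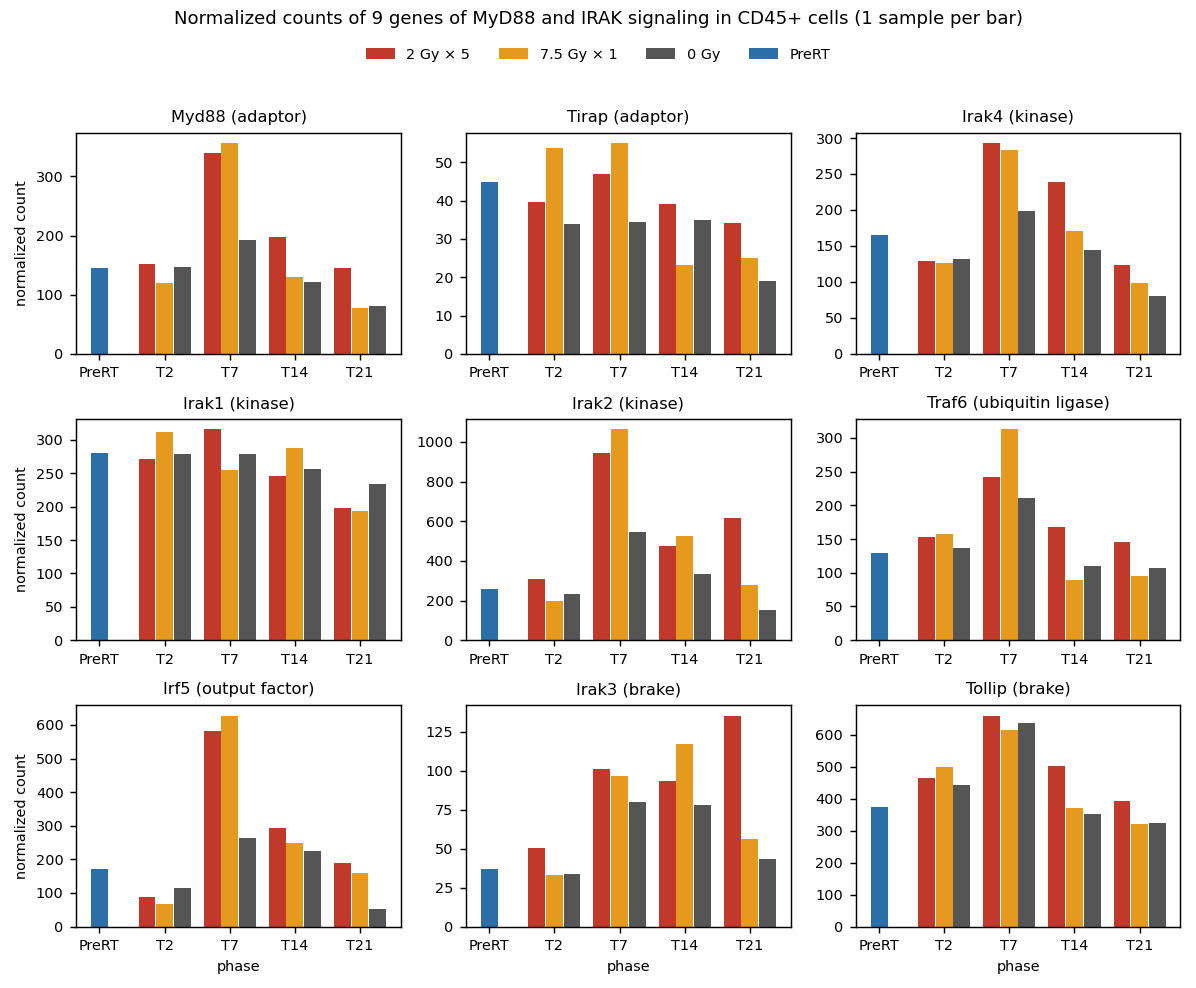
Normalized counts (vertical axes, from 0) of the 9 genes by phase, 1 bar per sample, with 2 Gy × 5, 7.5 Gy × 1 and 0 Gy side by side and PreRT in blue. Irak2, Irf5 and Myd88 peaked in the irradiated samples of T7 (946 and 1063, 583 and 627, 339.9 and 357), Irak3 peaked at 135 after 2 Gy × 5 at T21, and Irak1 stayed between 194 and 316. All T7 samples were read in run 1.

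The first comparison asked how each gene stood after irradiation relative to the 0 Gy sample of its phase. At T7 Irf5, Irak2, Myd88 and Irak4 were higher after both regimens with counting intervals above 0, while Irak1, Irak3, Tirap and Tollip were not. At T21 after 2 Gy × 5, Irak2, Irf5 and Irak3 were more than 3-fold higher, the only comparison in which a brake passed 2-fold. No member was 2-fold lower in any of the 8 comparisons, where 2 to 71 of 415 genes were. Over the 72 member comparisons, 27 intervals lay above 0, 6 of them for the 2 Gy × 5 sample of T14 that crosses runs. An interval below 0 was found in 1 comparison, that of Irf5 at T2 after 7.5 Gy × 1. Such intervals were not counted over all genes. These counts thus have no background and do not set the members apart from the panel.

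The members' differences from the 0 Gy sample moved with the panel as a whole. At T2 the median member log2 ratio was 0.07 after 2 Gy × 5 and -0.02 after 7.5 Gy × 1, beside -0.01 and -0.01 over the 415 genes, and at T7 it was 0.45 and 0.57, beside 0.42 and 0.48. At T14 it was 0.51 and 0.14, beside 0.35 and 0.24, and at T21 0.84 and 0.28, beside 0.71 and 0.21. No member was 2-fold higher at T2, where 2.65% of all genes were after 2 Gy × 5 and 3.61% after 7.5 Gy × 1. Irf5 was the 1 member of 9 past 2-fold at T7 after either regimen, where 19.3% of all genes were after 2 Gy × 5 and 22.2% after 7.5 Gy × 1. At T14 it was 0 members, with 15.9% and 11.8% of all genes. At T21 it was 3 members after 2 Gy × 5, with 35.2% of all genes, and Irf5 alone after 7.5 Gy × 1, with 14%. The members' shares were not tested against these backgrounds.

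**Figure D2:**
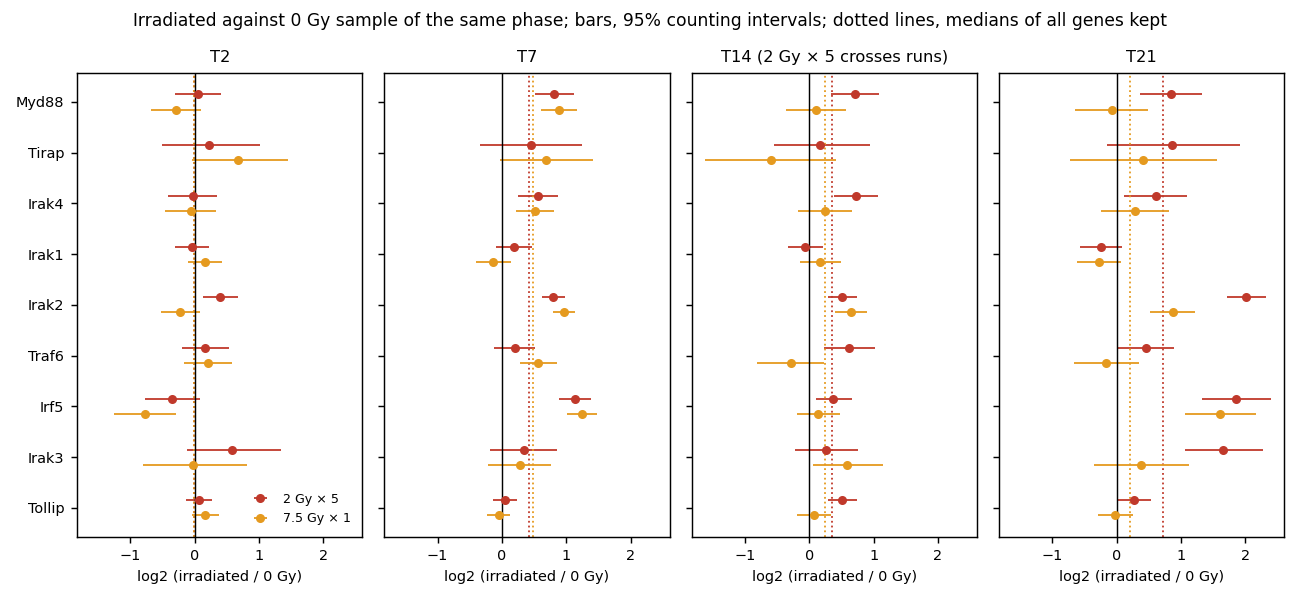
Log2 ratios of each irradiated sample to the 0 Gy sample of its phase (horizontal axes), 1 panel per phase, with 95% counting intervals; dotted lines mark the median of 415 genes in the same color. At T7 Irf5 (1.14 and 1.25) lay right of the panel medians of 0.42 and 0.48 and Tollip (0.05 and -0.05) left of them.

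Some leukocyte markers differed in the same comparisons. Of the 7 pan-leukocyte genes, 3 were 2-fold higher at T7 after each regimen, and 6 and 4 were at T21 after 2 Gy × 5 and after 7.5 Gy × 1; their summed level at T21 was 2080 and 1195, against 562 at 0 Gy. Of 6 listed neutrophil and MDSC markers 4 were above background, and none was at 0 in any sample. Camp (1 to 12 counts) and Cxcr1 (2 to 39) were measured but fell below the filter. The summed level of the 4 was 19517 and 49625 at T7, against 17153 at 0 Gy. At T21 it was 24975 and 14730, against 5357 at 0 Gy. Of 11 listed monocyte and macrophage markers 8 were above background, and Marco was measured below it. The 8 summed to 10221 and 11950 at T7, against 6762 at 0 Gy, and 5582 and 3975 at T21, against 1710 at 0 Gy. They did not move as 1 group at T7: 2 were 2-fold higher after each regimen, 1 was 2-fold lower after 2 Gy × 5 and 2 were after 7.5 Gy × 1, and their median log2 ratios of 0.11 and 0.35 lay below the 0.42 and 0.48 of all genes. Fcgr1 held 2927 and 2819, against 894 at 0 Gy, while Adgre1, which encodes F4/80, held 501 and 664, against 865 at 0 Gy, and Cx3cr1 held 69.5 and 93.5, against 259 at 0 Gy. At T2 the pan-leukocyte sum was 962 and 716, against 1011 at 0 Gy, and the monocyte and macrophage sum was 2956 and 1414, against 2602 at 0 Gy. When samples were scaled to the pan-leukocyte genes instead, Irf5 was at -0.22 and -0.10 at T2, at 0.08 and 0.18 at T7 and at 0.14 and 0.64 at T21, Irak2 was at -0.27 and -0.10 at T7 and at 0.30 and -0.09 at T21, and Irak3 was at -0.72 and -0.80 at T7 and at -0.07 and -0.57 at T21. The median of all genes was then at 0.12 and 0.65 at T2, at -0.64 and -0.58 at T7 and at -1.002 and -0.744 at T21.

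Across all 13 samples, Irf5 and Irak2 followed Ptprc most closely, with r of 0.98 and 0.96, and 0.94 and 0.91 after centering the runs. The pooled and centered values were 0.90 and 0.90 for Irak4, 0.83 and 0.80 for Myd88, 0.79 and 0.81 for Irak3, 0.64 and 0.31 for Tollip, 0.63 and 0.22 for Traf6, 0.39 and 0.52 for Tirap, and 0.15 and 0.22 for Irak1. They are descriptive, and the part of leukocyte share in the members' differences was not tested.

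**Figure D3:**
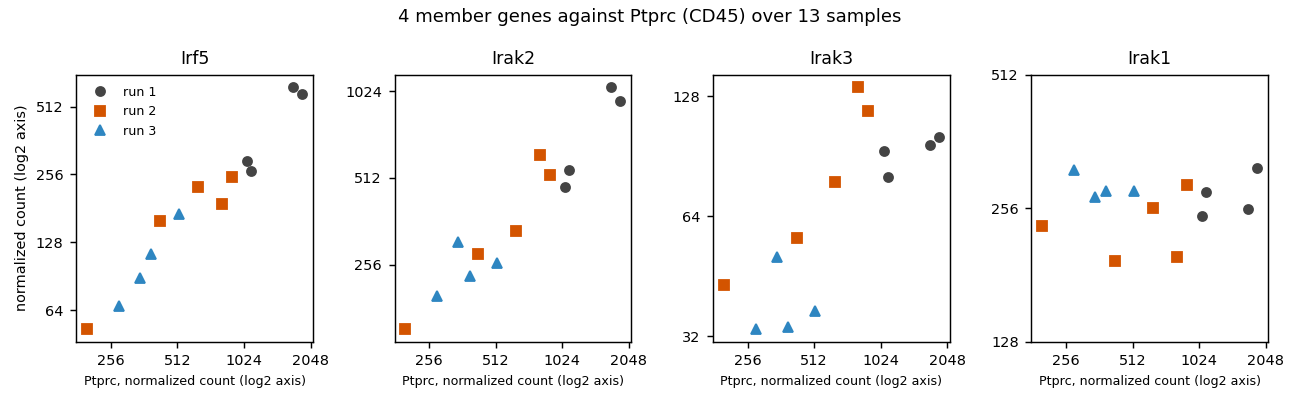
Normalized counts of Irf5, Irak2, Irak3 and Irak1 against those of Ptprc (both axes log2), 1 point per sample, marked by run. Irf5 and Irak2 line up with Ptprc (r = 0.98 and 0.96), Irak3 less so (0.79) and Irak1 hardly (0.15).

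Regimens were tested over the 4 phases, with phases standing in for replicates, in edgeR's quasi-likelihood fit on raw counts. Of the 9 members, 0 passed an adjusted p of 0.05 for 2 Gy × 5 over 0 Gy, where 0% of the 415 genes passed; 0 passed for 7.5 Gy × 1 over 0 Gy, where 1.2% of genes passed; and 0 passed for 7.5 Gy × 1 over 2 Gy × 5, where 0% passed. The nearest was Irak2, at 0.58 ± 0.23 (log2, SE) for 2 Gy × 5 over 0 Gy with an edgeR adjusted p of 0.203, higher in 4 of 4 phases. With housekeeping factors it was at 0.93 and with pan-leukocyte factors at 0.10, neither passing. It was the only member with an unadjusted p under 0.05 for 2 Gy × 5 in edgeR, where 70 of 415 genes had one; with housekeeping factors and in limma 4 members did, with 101 and 103 of 415 genes. No member had one in edgeR in the other regimen contrasts, where 46 genes did for 7.5 Gy × 1 over 0 Gy and 26 for 7.5 Gy × 1 over 2 Gy × 5. DESeq2 and limma also called 0 members in all 3 contrasts. Against each other, the regimens differed in Irak2 by -0.22 ± 0.23, in Irak3 by -0.25 ± 0.25 and in Myd88 by -0.29 ± 0.21 (7.5 Gy × 1 over 2 Gy × 5, edgeR log2 fold change and SE), and in the other 6 members by -0.12 to 0.16; none passed, which does not show that the regimens act alike.

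Phases were compared in the same fit, with the 3 arms standing in for replicates. Relative to the panel, Irf5 and Irak2 rose at T7 over T2 and Irak1 fell; neither Irf5 nor Irak2 passed with pan-leukocyte factors, where Irak2 turned to -0.05, and Irak1 did not pass with housekeeping factors. Irf5 was 3.03-fold higher, at 1.60 ± 0.33 (log2, SE; edgeR adjusted p = 0.00216), and Irak2 1.97-fold higher, at 0.98 ± 0.27 (edgeR adjusted p = 0.00745). Irak1 fell by 0.80 ± 0.27 (edgeR adjusted p = 0.021). The brakes did not pass, with Irak3 at 0.48 ± 0.30 and Tollip at -0.33 ± 0.25. Of all genes, 53.3% passed in this contrast, 27.2% as higher and 26% as lower, so 3 of 9 members is not above the background. Every T7 sample was in run 1 and every T2 sample in run 3, so phase and run cannot be told apart here. In the later contrasts 0 members passed in edgeR or DESeq2: T14 over T7, where 8.67% of genes passed, and T21 over T14, where 5.54% passed. At an unadjusted p under 0.05 in edgeR there were 2 members for T14 over T7, Myd88 and Traf6, beside 94 of 415 genes, and 0 for T21 over T14, beside 117 of 415 genes. Limma on normalized values called 2 members and 47 genes for T14 over T7, and 1 member and 64 genes for T21 over T14. Without the 2 Gy × 5 arm, T21 over T14 lies within run 2, and 0 members and 0 of 415 genes passed.

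The scaling set which members were called. The TMM factors of the fit hold the median of all genes near 0 in T7 over T2, whereas housekeeping factors put it at 0.78. With housekeeping factors, 6 members were higher at T7 and none lower, beside 183 of 415 genes higher and 21 lower: Irf5 at 2.35, Irak2 at 1.74, Irak3 at 1.27, Myd88 at 1.06, Irak4 at 0.98 and Traf6 at 0.78. Irak1 was then at -0.02 and Tollip at 0.44, neither passing. With factors from the pan-leukocyte genes, added after the data were seen, the median of all genes was at -1.08, Irak1 (-1.89), Tirap (-1.81), Tollip (-1.42) and Traf6 (-1.12) were lower, beside 214 of 415 genes, and Irf5 (0.59) and Irak2 (-0.05) did not pass. Each scaling shifts all genes of a sample alike, so the order of the members hardly depends on it. Without the 7.5 Gy × 1 arm, Irf5 alone passed, at 1.34 (edgeR adjusted p = 0.031), and Irak1 was at -0.51 and Irak2 at 0.81; without the 2 Gy × 5 arm, Irak1 was at -0.87 and did not pass.

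**Figure D4:**
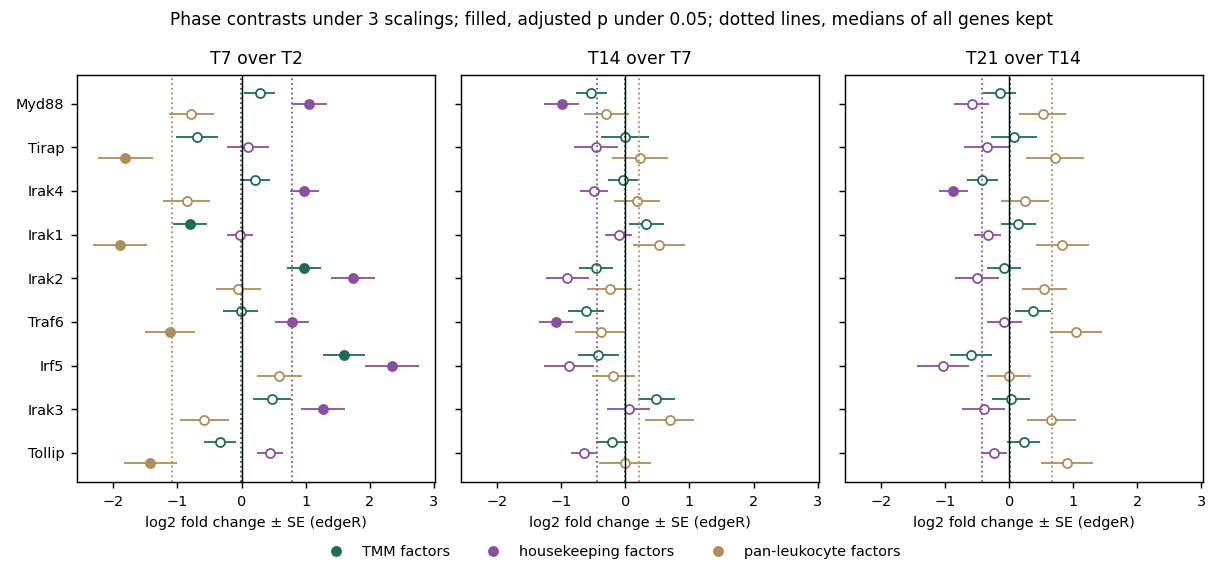
EdgeR log2 fold changes with SE (horizontal axes) of the 9 genes for successive phases over the 3 arms, under 3 scalings; filled points have an adjusted p under 0.05 and dotted lines mark the median of 415 genes. In T7 over T2, Irf5 lay at 1.60, 2.35 and 0.59 and Irak1 at -0.80, -0.02 and -1.89 with TMM, housekeeping and pan-leukocyte factors.

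Against PreRT, the baseline from which the study took its fold changes, Irak3 was the member most often past 2-fold: in 7 of 12 later samples, all of T7 and T14 among them. At T7 its log2 ratio to PreRT was 1.45 and 1.39 after 2 Gy × 5 and after 7.5 Gy × 1 and 1.11 at 0 Gy; at T14 it was 1.33, 1.66 and 1.08 in the same order, and at T21 1.87, 0.61 and 0.22. The 0 Gy samples of T7 and T14 were thus past 2-fold as well. Irak2 was past 2-fold in 5 samples, with 1.87 and 2.04 at T7 after 2 Gy × 5 and after 7.5 Gy × 1 and 1.07 at 0 Gy. All of these samples were read in another run than PreRT. Under the other scalings and with a pseudocount, Irak3 passed 2-fold in 2 to 5 of 12 samples. It was then not always the most frequent. With total counts Irf5 passed in 3, all lower, against 2 for Irak3. With a pseudocount Irak2 passed in 4, as did Irak3. With pan-leukocyte scaling Irak3 passed in 4, and Irak1 was 2-fold higher in 2 and lower in 2. The PreRT value of Irak3 rests on 28 counts.

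At T7, 4 members were 2-fold above PreRT after 2 Gy × 5 (Irak2, Irf5, Irak3 and Myd88) with 37.6% of all genes, 5 after 7.5 Gy × 1 (these and Traf6) with 41.7%, and 2 at 0 Gy (Irak3 and Irak2) with 19%. At T14 it was Irak3 alone after 2 Gy × 5 with 21.2% of all genes, Irak3 and Irak2 after 7.5 Gy × 1 with 20.5%, and Irak3 alone at 0 Gy with 13.3%. At T21 it was Irak3 and Irak2 after 2 Gy × 5, with 18.1% of all genes. Members 2-fold below PreRT were Irf5 (-1.36) at T2 after 7.5 Gy × 1, within the run of PreRT and with 25.1% of all genes lower, and Irf5 (-1.70), Tirap (-1.25) and Irak4 (-1.03) in the 0 Gy sample of T21, with 38.1%.

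Brakes were set against drivers within each sample, as the log2 level of Irak3 or Tollip minus the mean log2 level of the 6 drivers; 1 scaling factor per sample cancels in this difference. Irak3 and Tollip correlated at r = 0.251 over the 13 samples, and at 0.456 after centering the runs. Irak3 stood above its PreRT value relative to the mean of the drivers at T14 and T21 in every arm. Tollip stood lower relative to that mean in the irradiated samples of T7 than at 0 Gy, though not below PreRT beyond counting error. Relative to Irak1 alone, Tollip at T7 did not differ from 0 Gy beyond counting error. Probes differ in efficiency, so only changes of this difference between samples are given.

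At T2, in the run of PreRT, Irak3 minus the drivers differed from PreRT by 0.46 (-0.19 to 1.10) after 2 Gy × 5, -0.10 (-0.81 to 0.62) after 7.5 Gy × 1 and 0.00 (-0.83 to 0.83) at 0 Gy. At T7, in another run, it was higher by 0.61 (-0.05 to 1.27), 0.47 (-0.17 to 1.10) and 0.77 (0.11 to 1.44). At T14 it was higher by 1.03 (0.43 to 1.62), 1.75 (1.10 to 2.40) and 1.21 (0.51 to 1.92), and at T21 by 1.85 (1.22 to 2.49), 1.17 (0.43 to 1.91) and 0.96 (0.20 to 1.72), again in other runs than PreRT. Neutrophil and MDSC markers differed in the same comparison, and their part in it was not tested. Their summed levels were 1024 at PreRT, 689 to 8067 at T2 and 17153 to 49625 at T7. They were 9094 to 52402 at T14 and 5357 to 24975 at T21. Relative to 0 Gy of the phase, only 2 Gy × 5 at T21 had an interval above 0, at 0.89 (0.28 to 1.51). The 7.5 Gy × 1 sample of T14 was at 0.54 (-0.02 to 1.10). At T7 the values were -0.16 (-0.68 to 0.36) and -0.31 (-0.80 to 0.18). The T21 difference did not hold against each driver. As log2 count ratios after 2 Gy × 5 and at 0 Gy, Irak3 over Irak2 was -2.18 and -1.82. Over Irak1 it was -0.551 and -2.435, over Irak4 0.138 and -0.907, and over Myd88 -0.099 and -0.907. Single ratios to Tirap and Traf6 were not taken.

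Tollip minus the drivers differed from 0 Gy by -0.45 (-0.70 to -0.20) after 2 Gy × 5 and by -0.63 (-0.86 to -0.40) after 7.5 Gy × 1 at T7, and by -0.48 (-0.81 to -0.15) and -0.20 (-0.56 to 0.16) at T21. At T2 and T14 all 4 intervals included 0, with values of -0.06 to 0.09. Against PreRT, in the run it shares with T2, the difference was 0.31 (0.06 to 0.57) after 2 Gy × 5, 0.47 (0.21 to 0.73) after 7.5 Gy × 1 and 0.38 (0.08 to 0.68) at 0 Gy in T2. In other runs it was also above PreRT, with intervals above 0, at T7 without irradiation (0.42), at T21 after 7.5 Gy × 1 (0.34) and at T21 without irradiation (0.54), and the intervals of the other 6 samples included 0. The log2 ratio of Tollip itself to 0 Gy was 0.05 after 2 Gy × 5 and -0.05 after 7.5 Gy × 1 at T7. Myd88 was at 0.81 and 0.88, Irak2 at 0.80 and 0.97 and Irak1 at 0.18 and -0.13. As log2 count ratios at T7, Tollip over Irak1 was 1.06 and 1.27, against 1.19 at 0 Gy. Tollip over Myd88 was 0.95 and 0.78, against 1.72 at 0 Gy. At T21 after 2 Gy × 5, Tollip over Irak1 was 0.99, above 0.48 at 0 Gy, and over Myd88 1.44, below 2.01. Ratios to the other drivers alone were not taken.

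With both brakes averaged, the difference from 0 Gy was 0.20 (-0.20 to 0.59) after 2 Gy × 5 and -0.00 (-0.43 to 0.42) after 7.5 Gy × 1 at T2, -0.31 (-0.62 to 0.01) and -0.47 (-0.76 to -0.18) at T7, -0.06 (-0.37 to 0.25) and 0.28 (-0.08 to 0.64) at T14, and 0.21 (-0.17 to 0.59) and 0.01 (-0.43 to 0.45) at T21. Only 7.5 Gy × 1 at T7 had an interval that excluded 0.

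**Figure D5:**
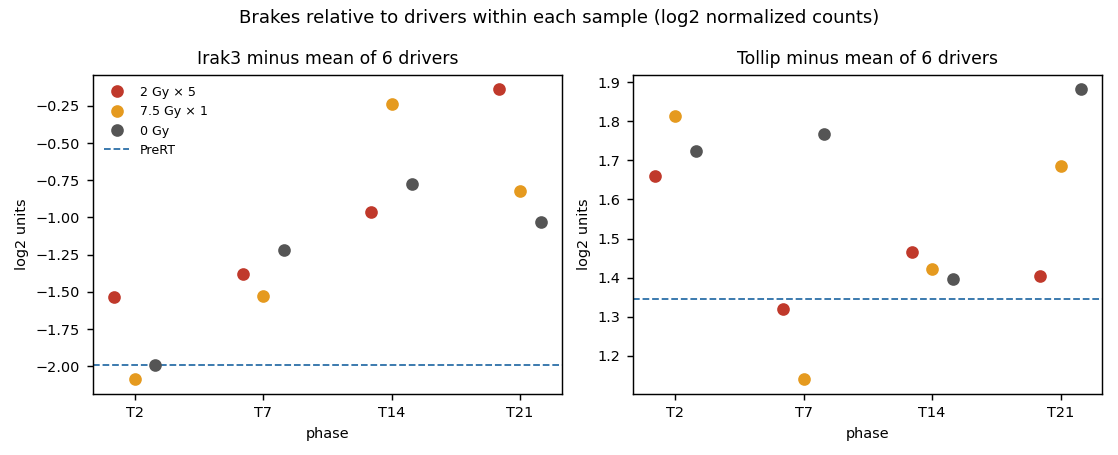
Log2 level of Irak3 (left) and of Tollip (right) minus the mean of 6 drivers within each sample, by phase, with 1 point per sample and the PreRT value dashed. Irak3 lay at -0.97, -0.24 and -0.78 at T14 after 2 Gy × 5, 7.5 Gy × 1 and 0 Gy, above -1.99 at PreRT, and Tollip at 1.32 and 1.14 in the irradiated samples of T7, below 1.77 at 0 Gy.

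Toll-like receptors, most of which feed MyD88, and IL-1 family receptors split in T7 over T2, where 27.2% of all genes rose and 26% fell. Of 9 measured Toll-like receptors and co-receptors of 11 listed, 6 rose relative to the panel and none fell (with pan-leukocyte factors, 0 were higher and 3 lower), with Tlr1 highest at 1.74 (edgeR adjusted p = 0.000853), followed by Tlr5 at 1.28, Tlr9 at 1.20, Tlr2 at 1.17, Tlr8 at 1.15 and Cd14 at 1.02. Tlr4 (0.15), Ly96 (-0.38) and Tlr3 (-0.63) did not pass. The median of the list was 1.15, beside -0.01 over all genes. Of 6 IL-1 family receptor chains, 5 fell and none rose (with housekeeping factors, 1 was lower), led by the IL-1 receptor Il1r1 at -1.62 (edgeR adjusted p = 0.00112) and the IL-33 receptor Il1rl1 at -1.53; the median was -1.19. With housekeeping factors, 7 Toll-like receptors and co-receptors were higher, and the 1 IL-1 family chain that was lower was Il1r1, at -0.85. All 6 IL-1 family chains were lower with pan-leukocyte factors. The same run difference applies to these values. Of the markers above background, 5 of 8 of monocytes and macrophages and 4 of 4 of neutrophils and MDSC were higher in the same contrast. Among CD45-negative markers, 3 of 5 were lower. Cd14 stands in both the receptor and the monocyte list, and the part of these cells in the receptors' values was not tested.

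Among 3 brakes at the receptor level, the decoy receptor Il1r2 rose at T7 over T2 by 1.61 (edgeR adjusted p = 0.00302), Sigirr, an inhibitory receptor of the family, fell by 1.28 (edgeR adjusted p = 0.00197), and the receptor antagonist Il1rn was at 0.88 without passing. With housekeeping factors Il1r2 (2.36) and Il1rn (1.63) passed as higher and Sigirr (-0.50) did not pass, and with pan-leukocyte factors only Sigirr passed. Of all genes, 27.2% rose and 26% fell in this contrast. Of 7 measured NF-κB core genes 6 fell and none rose, with a median of -1.05. With housekeeping factors none of the 7 was lower and 1 was higher. With pan-leukocyte factors 6 were lower, beside 214 of 415 genes. Of 4 measured NF-κB feedback inhibitors Tnfaip3, the ubiquitin-editing brake on TRAF6 signaling, fell by 0.69 (edgeR adjusted p = 0.0373) and none rose. None passed with housekeeping factors, and all 4 were lower with pan-leukocyte factors. Of 11 output cytokines and enzymes above background, 1 rose (Nos2) and 5 fell (Ccl2, Cxcl1, Il10, Il6 and Ptgs2). With housekeeping factors 2 were higher and 1 lower, and with pan-leukocyte factors 0 were higher and 7 lower. Il6 was at -1.61 (edgeR adjusted p = 0.00155) in the main fit.

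Set against the 0 Gy sample of the phase, the 11 output genes varied by phase and regimen. At T2, 2 were 2-fold higher after 2 Gy × 5, where 2.65% of all genes were. After 7.5 Gy × 1 in the same phase, 2 were 2-fold lower, where 71 of 415 genes were. At T7, 1 was 2-fold higher after 2 Gy × 5 and 6 were after 7.5 Gy × 1, where 19.3% and 22.2% of all genes were. At T14, 1 was 2-fold higher and 3 were lower after 2 Gy × 5, across runs, where 66 and 27 of 415 genes were. After 7.5 Gy × 1 in that phase 0 differed 2-fold, where 49 of 415 genes were higher and 3 lower. At T21, 7 were 2-fold higher after 2 Gy × 5 and 2 after 7.5 Gy × 1, where 35.2% and 14% of all genes were. Il1b held 6833 and 9454 normalized counts at T7 after 2 Gy × 5 and after 7.5 Gy × 1, against 3635 at 0 Gy, and 15097 and 8370 at T21, against 2599 at 0 Gy. Tnf held 258 and 306 at T7, against 119.5 at 0 Gy. Il1rn held 1974 and 3229 at T7, against 1085 at 0 Gy, and 549 and 358 at T21, against 115 at 0 Gy. Toll-like receptors and co-receptors were 2-fold higher in 3 and 2 of 9 at T7 and in 4 and 1 of 9 at T21 after 2 Gy × 5 and after 7.5 Gy × 1, and IL-1 family receptor chains in 0 of 6 in each of these. None of these counts was tested.

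The genes most like Irak3 over the 13 samples were Fcer1g (r = 0.944, and 0.865 after centering the runs), Csf3r (0.918 and 0.836) and Pirb (0.917 and 0.829). Those most like Myd88 were Cd40 (0.951 and 0.859), Ikbkb (0.951 and 0.820) and Icam1 (0.948 and 0.832). Among the members, the highest pairs were Myd88 with Irak4, Irak2 with Irf5 (0.924 and 0.816) and Traf6 with Tollip, and the lowest was Irak1 with Irak3 (-0.230 and 0.096). After centering the runs, the highest were Irak4 with Irf5 (0.890), Myd88 with Irak2 (0.886) and Irak2 with Irak3 (0.879), and the lowest was Irak1 with Traf6 (-0.164). Samples share their scaling and runs, and these correlations carry no test.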

How the data were processed

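The deposited raw values are whole nCounter counts, 1 for each probe of a mouse immunology panel. The authors also deposited normalized values, used as signal: each sample's counts times 1 factor that sets the geometric mean of 14 housekeeping probes to 789.3, floored at the negative controls, as read from the values; the software is not given in the sources used here. Housekeeping scaling moves all other genes together when their share of the RNA changes. The panel has 547 endogenous genes; 549 accessions matched a RefSeq symbol and 12 did not. Genes whose mean count exceeded 13.1, the mean over samples of the negative controls' mean plus 2 SD, were kept (415; 132 removed).

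Single-sample ratios used normalized values with exact conditional binomial 95% intervals; those of the brakes minus the drivers are normal intervals from Poisson errors of the counts. The main test was edgeR 4.0.16 (R 4.3.3; TMM; phase and arm additive; 12 samples, PreRT left out), with Benjamini-Hochberg adjustment over 415 genes at 0.05. P-values rest on how far single samples depart from additive effects of phase and arm. This spread may be technical, and a regimen effect that differs between phases counts in it as error. DESeq2 1.42.0, limma 3.58.1, other scalings, a pseudocount of 20, no filter, leaving out arms or phases, and omitting the T14 2 Gy × 5 sample were alternatives; pan-leukocyte factors in edgeR were added after seeing the data. In simulated counts for the 6 contrasts, edgeR recovered 58 to 82% of 2-fold and 99 to 100% of 4-fold changes. There were 1 to 6 false calls among the 215 of 415 genes left unchanged. Each simulated gene had 1 mean without other phase or run effects, and its change was the same in every sample of a level. Far more genes were changed than passed in the regimen contrasts. These shares thus do not give the power of the real contrasts. Figures and ratios used Python 3.11.15, numpy 2.4.6, pandas 2.3.3, scipy 1.17.1 and matplotlib 3.10.9.

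The 9 members, the pathway and marker lists and the tests were chosen with earlier results of these data known. All 9 members are named; another gene is named when it is a receptor, partner or inhibitor acting on a member, the extreme of its list, a marker, or 1 of the 3 genes most like Irak3 or Myd88; Tnf, Il1b, Nfkbia and genes behind counts of 5 or fewer were named after their values were seen. The authors' series table repeats the normalized values and was not used.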

Additional observations from a re-analysis of the deposited data

How the results depend on the processing

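Each condition has 1 sample, so no replicate block could be fitted; phase is a term in the regimen contrasts. In T7 over T2, 3 members were called; limma on normalized values called 6 and housekeeping factors in edgeR 6, while leaving out 1 arm gave 1 to 3. Traf6 was at -0.01 there and turned to 0.758 in limma and 0.78 with housekeeping factors, and Irak2 turned to -0.052 with pan-leukocyte factors. In T14 over T7, limma and housekeeping factors each called 2 members (Myd88 and Traf6, both lower), and in T21 over T14 each called 1 (Irak4, lower), against 0 in edgeR with TMM factors. Against 0 Gy of the same phase, 6 member ratios passed 2-fold, 3 with median-of-ratios scaling, 3 with total counts and 12 with pan-leukocyte scaling (1 higher and 11 lower, against 6 and 0). Against PreRT 21 passed (17 higher and 4 lower), 13 with median-of-ratios scaling (10 and 3) and 8 with total counts (3 and 5). The regimen contrasts kept 0 members called under all alternatives run. A scaling cancels in the difference between brakes and drivers. With both brakes averaged, adding 1 count or a pseudocount, using 4 drivers or leaving out each driver moved the 8 comparisons with 0 Gy by less than counting error. Irak3 alone, Tollip alone and the comparisons with PreRT were not varied in this way. Over all genes, calls for T21 over T14 were 23 in edgeR, 97 in DESeq2, 56 with housekeeping factors and 0 without the 0 Gy or the 2 Gy × 5 arm; for 2 Gy × 5 over 0 Gy they were 0 in edgeR and 40 in DESeq2. The counts of Irak3 (22 to 164) and Tirap (14 to 69) limit what can be detected for both.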

Other observations

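Values at T14 that cross runs differed for members and for genes outside them, widely for some of the latter. Tnf held 98.9 normalized counts in the 2 Gy × 5 sample, read in run 1, and 407 after 7.5 Gy × 1, against 673 at 0 Gy, both read in run 2. Nfkbia held 3694 after 2 Gy × 5 and 7901 after 7.5 Gy × 1, against 7702 at 0 Gy. In run 1 at T7 Nfkbia held 4003 and 4581 after 2 Gy × 5 and after 7.5 Gy × 1, against 2840 at 0 Gy. Irak3 and Irak2 at T14 held 93.25 and 477 in the 2 Gy × 5 sample of run 1, and 117 and 526 in the 7.5 Gy × 1 sample of run 2, against 78.1 and 336 at 0 Gy. Other members lay outside the range of the run 2 samples. After 2 Gy × 5, after 7.5 Gy × 1 and at 0 Gy, Tollip held 503, 371 and 352, and Traf6 168, 89.85 and 109.7. In the same order Myd88 held 198, 130.4 and 121, Irak4 238, 171 and 145, Irf5 293, 249 and 226, and Tirap 39.2, 23.2 and 34.9. Irak1 was lowest after 2 Gy × 5, at 246, 288 and 255.9. Regimen and run cannot be told apart for the 2 Gy × 5 sample of T14.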
